A study of Mus musculus with 16 samples.

Results

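The genes that give smooth muscle cells and myofibroblasts their contractile apparatus were followed in the kidneys of WT and IL-33-deficient (KO) mice. 10 genes were taken by symbol, as listed in the deposited table in capitals: the actins ACTA2 and ACTG2, the actin-binding proteins TAGLN and CNN1, the myosins MYH11 and MYL9, the tropomyosins TPM1 and TPM2, the intermediate filament protein DES and the receptor PDGFRB. 9 of the 10 had a row among the 18132 genes of the table, and no row was matched to MYL9, so it has no value here. Expression was measured in total kidney RNA on Illumina MouseRef-8 v2 BeadChips, arrays of probe-coated beads whose brightness follows the amount of each transcript, with 1 array per kidney and 16 arrays in all. 7 WT and 5 KO kidneys were taken 24 h after unilateral ureteral obstruction (UUO), in which a metal clip on the left ureter blocks the outflow of urine. The other arrays came from 2 WT and 2 KO control kidneys, which the design text describes as untreated, not as sham-operated. The UUO mice also had anaesthesia, a flank incision and buprenorphine. Effects of these cannot be told apart from those of obstruction, and below, a response to UUO means the difference from untreated kidneys.

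All mice were on a C57BL/6 background, the deficient line, which came from Merck, having been backcrossed to C57BL/6J BomTac, and were 8 weeks old unless stated otherwise. How the allele disrupts Il33 is not given in the sources used here, and no restriction of the deletion to a cell type is described. The labels place the UUO arrays in 2 sets of mice, with 3 WT and 2 KO kidneys in set 1 and 4 WT and 3 KO kidneys in set 2, and give no set for the controls. Kidneys are named by the number in their label. Il33, the targeted gene, went with the labels, at log2 intensities of 6.80 to 7.02 in all KO kidneys, 7.62 and 8.02 in WT controls and 8.39 to 9.57 in WT kidneys after UUO. Nothing in the labels says that kidneys of a group came from separate litters or days, so the p-values below measure the spread between these kidneys.

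Smooth muscle contracts when myosin pulls on actin filaments that tropomyosin, calponin and transgelin decorate, while desmin ties the filaments into the cell. Arterial smooth muscle carries most of this programme in the healthy kidney, and pericytes, mesangial cells and interstitial fibroblasts carry PDGFRB, a receptor for platelet-derived growth factor (PDGF). In obstructed kidneys, interstitial cells become myofibroblasts, for which smooth muscle α-actin, the product of Acta2, is the usual marker. Many of these genes are driven by serum response factor, which binds a site called the CArG box, and by TEAD factors, which bind the MCAT element CATTCC.

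The promoters of Acta2 and Tpm1 are shown because, among measured members with a promoter sequence in hand, they alone held a match to a motif searched. Promoters from 250 bases before to 50 bases after the transcription start were available from RefSeq for 6 of the 10 genes, Acta2, Cnn1, Myl9, Tpm1, Tpm2 and Des, on the GRCm38.p6 build. Both lie on the minus strand, that of Acta2 at chr19:34255324-34255623 and that of Tpm1 at chr9:67049164-67049463, and are written 5′ to 3′ with the motif matches in capitals.
Acta2: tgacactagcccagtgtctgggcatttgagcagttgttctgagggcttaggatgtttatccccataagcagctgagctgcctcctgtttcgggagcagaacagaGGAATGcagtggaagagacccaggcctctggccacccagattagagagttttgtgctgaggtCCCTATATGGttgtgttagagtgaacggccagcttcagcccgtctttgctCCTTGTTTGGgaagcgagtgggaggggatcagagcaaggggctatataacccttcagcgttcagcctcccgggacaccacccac
Tpm1: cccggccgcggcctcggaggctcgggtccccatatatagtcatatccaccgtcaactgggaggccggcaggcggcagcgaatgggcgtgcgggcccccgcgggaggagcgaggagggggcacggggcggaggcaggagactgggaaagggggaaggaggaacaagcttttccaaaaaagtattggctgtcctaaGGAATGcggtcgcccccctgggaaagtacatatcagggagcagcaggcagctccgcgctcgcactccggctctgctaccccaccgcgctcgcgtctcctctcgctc

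In Acta2 the pair of longer matches, at -84 to -75 and -34 to -25 from the start, are CArG boxes with 1 G or C allowed among the 6 bases of the core, and the shorter one is CATTCC read on the other strand at -146 to -141. In Tpm1 the match is CATTCC on the other strand, at -56 to -51. The strict CArG box, with a core of A and T alone, was in 1.63% of 32851 RefSeq promoters of the same length and the relaxed one, which includes the strict one, in 9.98%. CATTCC was in 14.7%, both strands being searched for each motif. Myl9, for which no row was matched, had 1 strict and 1 further relaxed CArG box, and neither motif was found in the windows of Cnn1, Tpm2 and Des. A match is a run of letters and was not tested as a binding site.

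In WT kidneys 24 h after UUO, 6 of the 9 measured genes were higher than in controls and 1 was lower. Acta2, Tagln, Tpm1, Tpm2, Des and Pdgfrb rose and Myh11 fell, while Actg2 and Cnn1 did not pass (limma, adjusted p below 0.05 over all genes). Over all genes of the table, the share that passed was 15.2%, with 6.97% higher and 8.22% lower. The median log2 fold change of the 9 genes was 0.38, and that of all genes was -0.00076. The largest rise was that of Tpm1, at a log2 fold change of 0.57 with a standard error (SE) of 0.16, which is 1.48-fold with a 95% interval of 1.16 to 1.89. 4 of the 9 genes, Tagln, Des and Pdgfrb upwards and Myh11 downwards, separated all WT kidneys after UUO from both WT controls, where 21.4% of all genes did so in either direction. In bulk kidney RNA, more cells of a type and more RNA per cell cannot be told apart.

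In KO kidneys the same 6 genes passed the test and all rose, with no gene lowered. 21.8% of all genes passed in this genotype, 10.6% higher and 11.2% lower, and the median log2 fold change of the 9 genes was 0.67. Each of the 6 had every KO kidney after UUO above both KO controls, against 17.5% of all genes. Acta2 rose 2.90-fold, with a 95% interval of 2.28 to 3.68, and Tpm1 1.96-fold, with an interval of 1.52 to 2.53. Myh11 was at a log2 fold change of -0.15 (SE 0.12, adjusted p = 0.482), Cnn1 at -0.04 and Actg2 at -0.07.

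**Figure D1:**
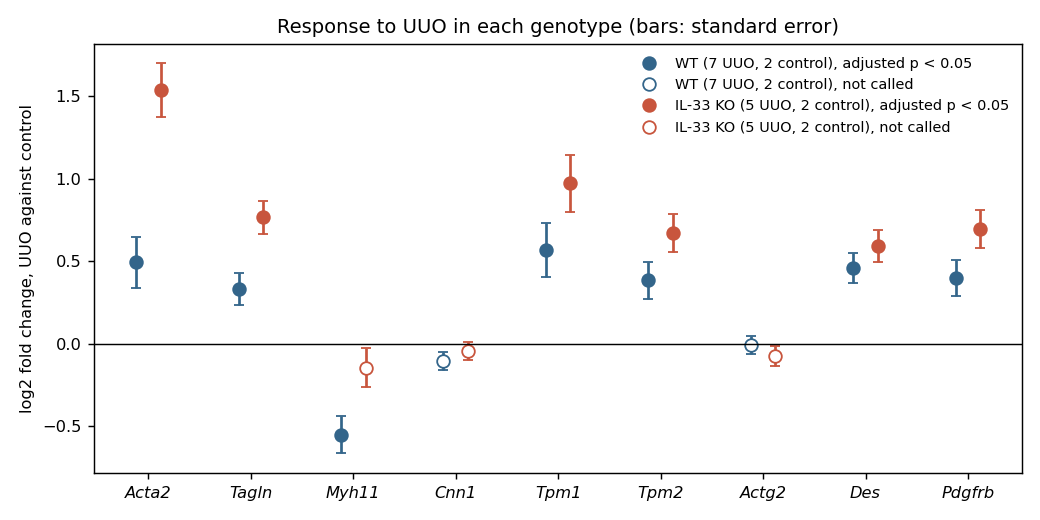
Log2 fold change of each gene after UUO against control kidneys of the same genotype, in WT (blue) and IL-33 KO (red) kidneys, with standard errors from limma as bars and filled points for an adjusted p below 0.05. Acta2 lies at 0.49 in WT and 1.54 in KO kidneys, and Myh11 is the only gene below 0 that passed, in WT kidneys alone.

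The calls in WT kidneys rested on both controls. The count of 7 fell to 1 without WT control 3811, where Myh11 alone passed, and to 1 without WT control 3812, where Acta2 alone passed. It was 3 (Tagln, Des and Myh11) with the spread taken from WT arrays alone, 0 with UUO kidneys of set 1 alone and 7 with those of set 2 alone. Calls over all genes, 15.2% of the table with all arrays, also fell without control 3812, with WT arrays alone and with set 1 alone. They rose with set 2 alone, as counted in the closing paragraph. In KO kidneys all 6 calls held when any single array was left out, and 5 held with UUO kidneys of set 1 alone, where Tpm1 had an adjusted p of 0.0514. The smallest p an exact permutation test allows is 0.0278 for 7 against 2 kidneys and 0.0476 for 5 against 2.

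The actins differed from each other. Smooth muscle α-actin (Acta2) had log2 intensities of 9.79 and 10.30 in WT controls, 9.64 and 9.70 in KO controls, and 11.14, 11.17, 11.23, 11.20 and 11.30 in KO kidneys after UUO. WT kidneys after UUO ran from 10.18 (3820) over a median of 10.51 to 10.88 (3818). The KO kidneys after UUO lay close together and above every other kidney, whereas WT kidney 3820 lay below WT control 3812. The response to UUO was a log2 fold change of 0.49 in WT (SE 0.15, adjusted p = 0.0435) and 1.54 in KO kidneys (SE 0.16, adjusted p = 2.2e-05). The WT value ran from 0.24 without control 3811 to 0.75 without control 3812. Actg2, the γ-actin of visceral smooth muscle, stayed between 6.85 and 7.12 in all 16 kidneys, and its groups overlapped after UUO.

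Transgelin (Tagln), an early actin-binding protein of the smooth muscle lineage, had log2 intensities of 7.23 and 7.35 in WT controls and 7.24 and 7.26 in KO controls. After UUO it ran from 7.43 over a median of 7.61 to 7.77 in WT kidneys and was 7.95, 7.82, 7.97, 8.22 and 8.09 in KO kidneys. The order was controls, WT after UUO, KO after UUO, with no overlap between these 3 blocks. It rose by a log2 fold change of 0.33 in WT (SE 0.10, adjusted p = 0.0298) and 0.77 in KO kidneys (SE 0.10, adjusted p = 9.4e-05). Calponin (Cnn1), which binds actin in mature smooth muscle, lay between 6.77 and 7.01 in all kidneys, and its log2 fold change was -0.10 in WT (adjusted p = 0.263) and -0.04 in KO kidneys (adjusted p = 0.691). Mean log2 intensities of 6.91 for Cnn1 and 6.99 for Actg2 were below the median of 7.05 over all genes, and the lowest intensity of the table is 95.5 rather than 0, which compresses differences of dim genes.

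Smooth muscle myosin heavy chain (Myh11), the motor of the mature contractile cell, went the other way. It had log2 intensities of 7.64 and 8.07 in WT controls and from 7.17 over a median of 7.32 to 7.53 in WT kidneys after UUO, a fall of 0.55 on the log2 scale (SE 0.11, adjusted p = 0.00466). KO controls had 7.39 and 7.62, and KO kidneys after UUO 7.18, 7.30, 7.33, 7.52 and 7.46. All WT kidneys after UUO lay below both WT controls, whereas KO kidneys after UUO overlapped their controls. WT control 3812, the highest kidney for Myh11, was also the higher WT control for all other members except Cnn1 and Pdgfrb. Without it the WT difference was -0.33 (adjusted p = 0.174), and without control 3811 it was -0.77.

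Of the tropomyosins, which lie along the actin filament and gate its access to myosin, Tpm1 had log2 intensities of 10.89 and 10.95 in WT controls and 10.94 and 10.87 in KO controls. After UUO it ran from 10.92 over a median of 11.51 to 11.97 in WT kidneys and was 11.95, 11.94, 11.83, 11.84 and 11.82 in KO kidneys. WT kidney 3820 was at the level of the controls, while WT kidney 3819 was the highest of all 16. It rose by a log2 fold change of 0.57 in WT (adjusted p = 0.0296) and 0.97 in KO kidneys (SE 0.17, adjusted p = 8.1e-04). Tpm2 was at 7.46 and 7.66 in WT controls, 7.52 and 7.50 in KO controls, 7.59 to 8.14 with a median of 7.99 in WT kidneys after UUO and 8.01, 8.19, 8.26, 8.20 and 8.26 in KO kidneys after UUO. It rose by 0.38 in WT (SE 0.11, adjusted p = 0.0288) and 0.67 in KO kidneys (SE 0.12, adjusted p = 6.7e-04), and WT kidney 3820 was again the lowest after UUO.

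Desmin (Des), the intermediate filament protein of muscle that pericytes, mesangial cells and injured podocytes also make, was at log2 intensities of 7.92 and 7.93 in WT controls and 7.81 and 8.11 in KO controls. After UUO it ran from 8.20 over a median of 8.41 to 8.58 in WT kidneys and was 8.53, 8.60, 8.69, 8.48 and 8.46 in KO kidneys. Every kidney after UUO was above all 4 controls, and the genotypes overlapped after UUO. Its rises, of 0.46 in WT (SE 0.09, adjusted p = 0.00367) and 0.59 in KO kidneys (SE 0.10, adjusted p = 4.1e-04), were the closest to each other among the 6 genes.

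Pdgfrb, the β-receptor for PDGF on mural cells and fibroblasts, was at 7.61 and 7.66 in WT controls and 7.54 and 7.71 in KO controls. It ran from 7.76 over a median of 8.02 to 8.22 in WT kidneys after UUO and was 8.29, 8.40, 8.47, 8.31 and 8.11 in KO kidneys after UUO. Here too every kidney after UUO was above all 4 controls, and 4 of the 5 KO kidneys were above every WT kidney. Its rise was 0.40 in WT (SE 0.11, adjusted p = 0.0217) and 0.69 in KO kidneys (SE 0.11, adjusted p = 4.7e-04). Of the 4 ligand genes measured, Pdgfb and Pdgfa rose and Pdgfc and Pdgfd did not pass in either genotype. Of all genes 6.97% rose in WT and 10.6% in KO kidneys. Pdgfb rose by a log2 fold change of 1.17 in WT (SE 0.27) and 1.22 in KO kidneys (SE 0.28), and Pdgfa by 1.05 (SE 0.21) and 1.24 (SE 0.22).

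**Figure D2:**
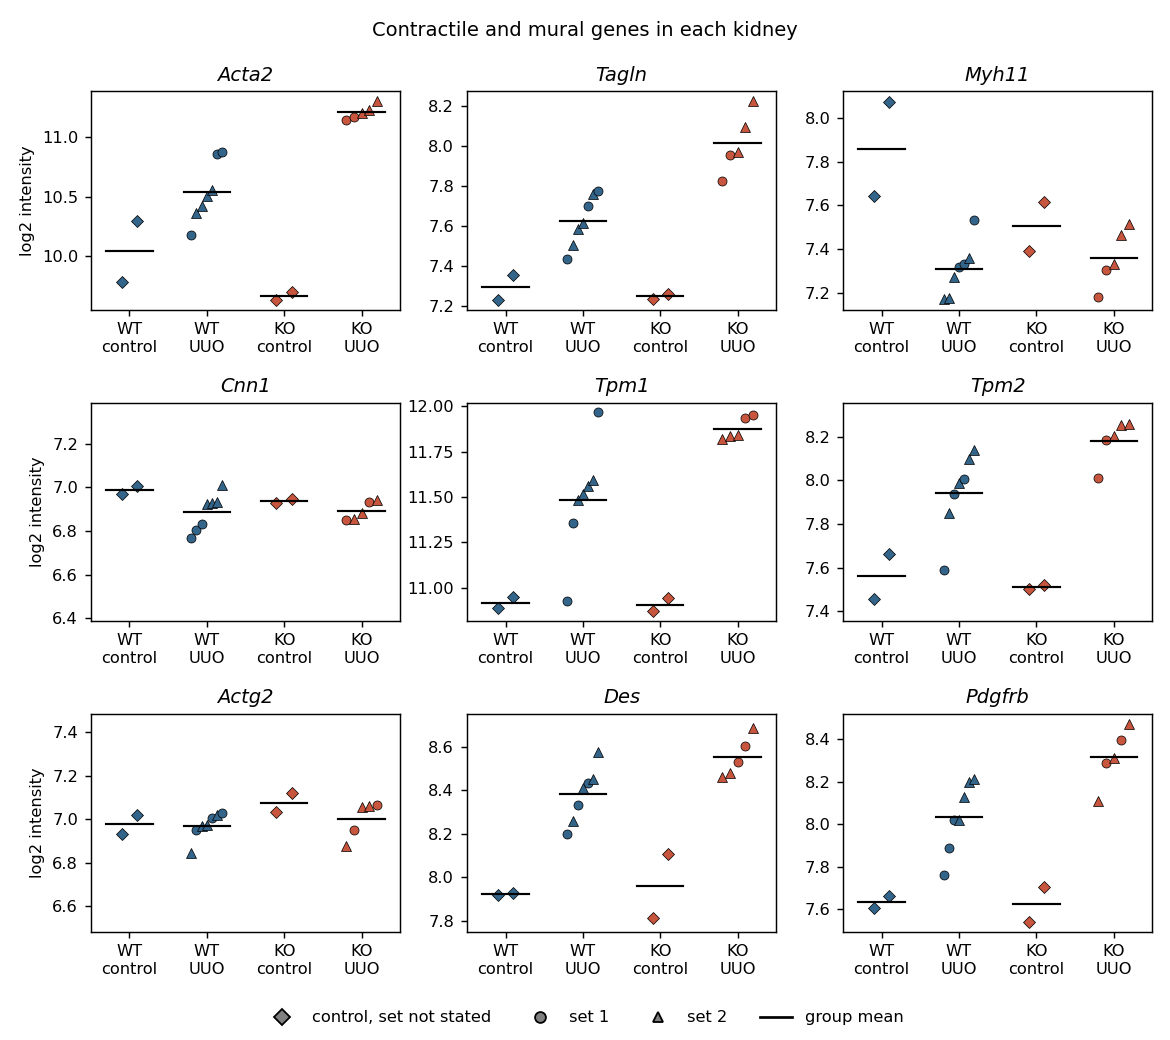
Log2 intensity of the 9 measured genes in each kidney, with diamonds for controls, circles for set 1, triangles for set 2 and lines for group means, blue for WT and red for IL-33 KO; the vertical axes differ between genes. Acta2 and Tagln lie higher in all 5 KO than in all 7 WT kidneys after UUO, and Myh11 is highest in WT control 3812.

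KO and WT kidneys after UUO were then compared directly, over these 12 arrays and at the study's threshold of an unadjusted p below 0.05, an adjusted p below 0.25 and a fold change above 1.3. Acta2 passed, 1.59-fold higher in KO kidneys with a 95% interval of 1.35 to 1.87 (adjusted p = 0.233), and was the one gene of the table that passed upwards, a share of 0.00552%. The other 8 genes did not pass, with log2 differences from 0.01 for Cnn1 to 0.39 for Tpm1 and Tagln. At an unadjusted p below 0.05 the count was 6 of 9, all higher in KO kidneys (Acta2, Tagln, Tpm1, Tpm2, Des and Pdgfrb), where 5.55% of all genes were higher at that level. Their adjusted p, from 0.304 for Tagln to 0.386 for Des apart from that of Acta2, would not pass 0.05, and neither would that of Acta2.

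Separation was complete for 2 of the 9 genes, Acta2 and Tagln, as it was in that direction for 0.419% of all genes. In an exact two-sided permutation test of 5 against 7 kidneys p was 0.00126 for Tagln, the smallest this design allows, and 0.00253 for Acta2. The exact p was 0.0139 for Tpm1, 0.0164 for Tpm2, 0.0303 for Des and 0.0139 for Pdgfrb. The groups overlapped widely for Myh11, with a log2 difference of 0.05 and a 95% interval of -0.10 to 0.20. For Actg2 the difference was 0.03 (-0.06 to 0.12) and for Cnn1 0.01 (-0.09 to 0.10).

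The difference was also taken within each set of mice. For Acta2 the difference was 0.51 in set 1 and 0.78 in set 2, and for Tagln 0.25 and 0.48. It was 0.53 in set 1 and 0.29 in set 2 for Tpm1, 0.24 and 0.12 for Des, 0.45 and 0.16 for Pdgfrb, and 0.25 and 0.22 for Tpm2. KO kidneys were above all WT kidneys of their own set for 6 of 9 genes in set 1 (Acta2, Tagln, Cnn1, Tpm2, Des and Pdgfrb; 12.8% of all genes) and for 4 of 9 in set 2 (Acta2, Tagln, Tpm1 and Tpm2; 4.49% of all genes). In set 2 the exact permutation p was 0.0286 for Acta2, Tagln and Tpm1, the smallest that 3 against 4 kidneys allow, while 2 against 3 kidneys in set 1 cannot go below 0.1. Myh11 (-0.15 and 0.19) and Cnn1 (0.09 and -0.06) had opposite signs in the sets, and by the limma test of that difference itself neither passed, both having an unadjusted p below 0.05, as 6.76% of all genes did, with 0% of genes called. Between the sets, at equal genotype, no member was called either (limma, 0% of genes), and Cnn1, higher in set 2 by 0.09, was the member with an unadjusted p below 0.05, where 4.98% of genes were higher at that level.

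**Figure D3:**
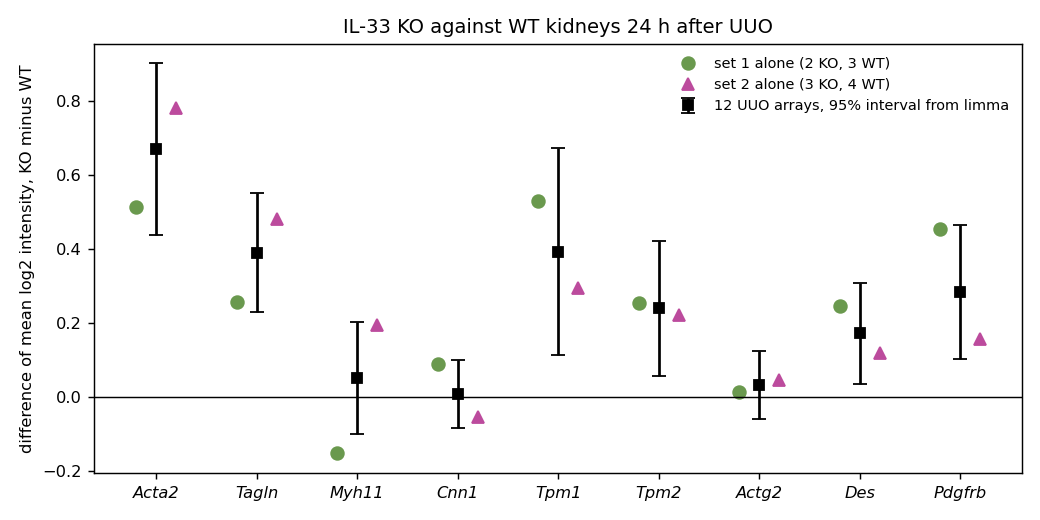
Difference of mean log2 intensity between IL-33 KO and WT kidneys 24 h after UUO, over all 12 arrays with the 95% interval from limma (black squares), in set 1 alone (green circles) and in set 2 alone (purple triangles). Acta2 is at 0.67, with 0.51 in set 1 and 0.78 in set 2, and the intervals of Myh11, Cnn1 and Actg2 include 0.

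The call of Acta2 depended on the fit. With the set of mice as a block its difference was 0.67 and its adjusted p 0.274, so no gene of the 9 passed, and none passed when any of 8 of the 12 arrays was left out (3821, 3822, 3892, 3893, 3894, 3895, 3897 or 3898). The difference of Acta2 itself was 0.61 to 0.72 over the 12 fits that left out 1 array each. Without WT kidney 3818 the count was 2 and without WT kidney 3819 it was 3. Acta2, Tagln and Tpm1 passed with all 16 arrays in one model and with the brighter genes alone, and Acta2 and Tagln passed with array weights and in set 2 alone. Calls over all genes rose as well without WT kidney 3819 and among the brighter genes, as counted in the closing paragraph.

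Kidneys of the same genotype also differed in how far the whole response to UUO had gone. Projected on the mean response of the other genotype, where 0 is the control mean and 1 that response, WT kidneys scored 0.37 to 0.95 over the 3955 genes called in KO kidneys and KO kidneys 1.11 to 1.25 over the 2754 called in WT kidneys. The scales of the scores differ, so they are compared within a genotype alone. WT kidney 3820, with 0.37, was the lowest WT kidney after UUO for Acta2, Tagln, Tpm1, Tpm2, Des and Pdgfrb, and kidney 3819, with 0.95, the highest for Tagln and Tpm1. WT kidney 3818 went the other way, with a low score of 0.57 but the highest Acta2 and Myh11 of the WT kidneys after UUO. The part of this extent in the difference between genotypes was not tested. Over the same kidneys the summed intensity of 6 fibroblast markers was 1952 to 3049 in WT and 2603 to 3811 in KO kidneys, and that of 8 tubule and glomerulus markers 21715 to 46706 and 20870 to 24145. Summed markers of endothelium (7 genes) were at 4114 to 4703 in WT and 4108 to 4975 in KO kidneys, and those of urothelium (8 genes) at 1142 to 3838 and 1896 to 2056, sums that moved mostly with Krt20, whose log2 intensity ran from 6.78 to 11.56 over all kidneys. In controls the tubule and glomerulus sum was 45013 to 48960 in WT and 41504 to 47392 in KO kidneys. WT kidney 3820 after UUO, at 46706, lay within these ranges. The part of these marker sums in the difference between genotypes was not tested.

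Control kidneys were compared to see whether the genotypes differed before obstruction. None of the 9 genes passed by limma, nor did any gene of the table (0%). The unadjusted p was below 0.05 for Myh11 alone, lower in KO controls by 0.35 (SE 0.14), where 1.81% of all genes were lower at that level. Acta2 was lower in KO controls by 0.37 (SE 0.19), and the other 7 genes differed by 0.10 or less. Both values rested on single WT controls, the difference being -0.14 for Myh11 and -0.12 for Acta2 without control 3812, and -0.57 and -0.63 without control 3811. Without KO control 3813 the difference of Myh11 was -0.24 (unadjusted p = 0.185). Both KO controls lay below both WT controls for Acta2, Myh11 and Cnn1 and above them for Actg2. The share of all genes that separated in this way was not counted. With 2 against 2 kidneys an exact test cannot go below 0.333.

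The difference between genotypes in the response to UUO was therefore asked directly. The log2 fold change was larger in KO than in WT kidneys for 8 of the 9 genes, all but Actg2, against 50.7% of all genes. That share also covers genes that fell or did not respond. None of the 9 was called (limma, 0% of genes). 3 genes had an unadjusted p below 0.05, all larger in KO kidneys, where 2.44% of genes were. The difference was 1.04 for Acta2 (SE 0.22, adjusted p = 0.832), 0.43 for Tagln (SE 0.14) and 0.40 for Myh11 (SE 0.16). For Acta2 it ran from 0.79 without WT control 3812 to 1.29 without WT control 3811, and for Myh11 from 0.19 to 0.62 without the same controls. The 1.04 is the sum of 0.67, by which Acta2 was higher in KO kidneys after UUO, and 0.37, by which it was lower in KO controls, and for Myh11 the controls gave 0.35 of the 0.40.

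Other genes of the contractile apparatus were split. Among 20 further smooth muscle contractile and anchoring genes, 7 rose and none fell in WT and 8 rose and none fell in KO kidneys. Their medians were 0.07 and 0.11, and 6.97% of all genes rose in WT and 10.6% in KO kidneys. The greater part did not pass, 13 in WT and 12 in KO kidneys. Among those that passed, the largest rises were those of Actn1 and Pdlim7. Actn1, an actin crosslinker, rose by 1.95 (SE 0.30) in WT and 2.40 (SE 0.31) in KO kidneys, and Pdlim7, an actinin-associated adaptor, by 1.47 (SE 0.24) and 2.00 (SE 0.25). Hspb6, a small heat shock protein of muscle, rose by 1.01 and 0.99, Csrp1 by 0.38 and 0.99 and vinculin (Vcl) by 0.65 and 0.86.

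Non-muscle counterparts of the members, mostly cytoskeletal genes used in many cell types, rose in the greater part. Of 11 measured, 6 rose in WT and 9 in KO kidneys, where 6.97% and 10.6% of all genes rose. None fell, and the medians were 0.52 and 0.69. Tropomyosin Tpm4 rose by 1.23 (SE 0.19) in WT and 1.66 (SE 0.20) in KO kidneys, Tpm3 by 0.74 and 1.10, the non-muscle myosin Myh9 by 1.00 and 1.24 and vimentin (Vim), an intermediate filament protein, by 0.99 and 1.81. In KO against WT kidneys after UUO none of these 11 or of the 20 above was called by limma. Of them 3 and 4 had an unadjusted p below 0.05, all higher in KO kidneys, where 5.55% of all genes were higher at that level. The fold change was larger in KO than in WT kidneys for all 11 and for 18 of the 20, against 50.7% of all genes. That share also covers genes that fell or did not respond, and other genes that rose were not taken as a reference.

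Other pericyte and mesenchymal genes passed about as often as all genes did, of which 15.2% passed in WT and 21.8% in KO kidneys. Of 16 measured, none rose and 2 fell in WT kidneys, the pericyte proteoglycan Cspg4 by 0.20 and the channel subunit Abcc9 by 0.17 on the log2 scale. In KO kidneys 3 rose, Mcam by 0.47, Thy1 by 0.37 and Gucy1b3 by 0.18, and the angiotensin receptor Agtr1a fell by 0.89. Medians were -0.03 and 0.01. In WT kidneys 6.97% of all genes were higher and 8.22% lower, and in KO kidneys 10.6% and 11.2%. After UUO none of the 16 was called between genotypes by limma. An unadjusted p below 0.05 was found for 5, all higher in KO kidneys, where 5.55% of all genes were higher at that level.

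Regulators of the contractile programme were followed in a list of 23. 4 rose and none fell in WT kidneys, Cyr61, a target of the TEAD coactivators, by 1.81 (SE 0.35), the TGF-β receptors Tgfbr2 by 0.90 and Tgfbr1 by 0.43, and the coactivator Wwtr1 by 0.47. 6 rose in KO kidneys, among them Cyr61 by 1.59 (SE 0.36), Tgfbr2 by 1.00, Smad3 by 0.94 and Tgfb1 by 0.71. The shares of all genes that rose were 6.97% in WT and 10.6% in KO kidneys. The medians of the 23 were 0.07 and 0.09, and between genotypes after UUO none was called and none had an unadjusted p below 0.05 (limma).

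**Figure D4:**
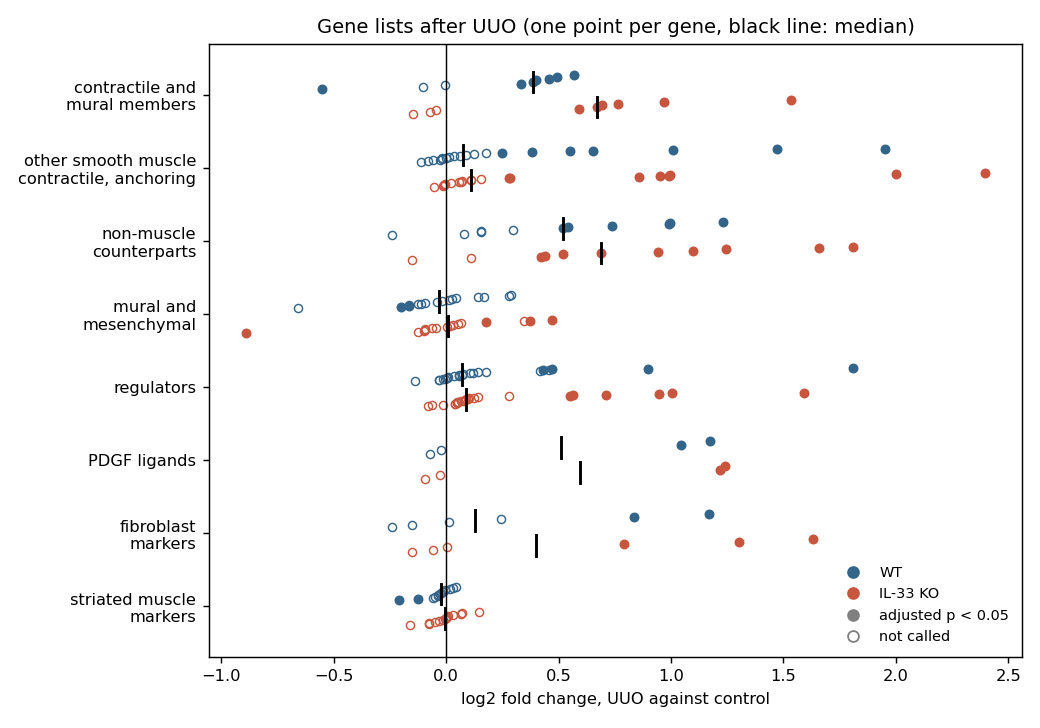
Log2 fold change after UUO of each gene in the 9 measured members and in 7 further lists, 1 point per gene in WT (blue) and IL-33 KO (red) kidneys, filled where the adjusted p was below 0.05, with black lines at the medians. The members (medians 0.38 and 0.67) and the non-muscle counterparts (0.52 and 0.69) lie to the right of 0, whereas most mural, regulator and striated muscle genes lie close to it.

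Markers of other tissues that share contractile genes were read beside these. Of 14 striated muscle markers none rose, Actn2 and Ttn fell in WT kidneys by 0.21 and 0.13, and none passed in KO kidneys. Their summed intensity was 1599 to 1672 in every group, and defining genes such as Acta1 and Ckm were at mean log2 intensities of 6.79 and 6.77, close to the lowest of the table. Of 8 urothelium markers Krt20 rose by 3.24 in WT and 3.19 in KO kidneys, 4 uroplakins fell in KO kidneys, Upk2, Upk3b and Upk1b the most, and no uroplakin rose. Among 6 fibroblast markers 2 collagen genes rose in WT and 3 in KO kidneys, Col1a1 by 1.17 and 1.63. Of 7 endothelium markers Esam fell in WT and Tek and Tie1 in KO kidneys, and of 8 tubule and glomerulus markers 4 fell in WT and 5 in KO kidneys, among which Slc12a1 fell by 3.12 in WT and fell by 3.13 in KO kidneys. Of all genes 6.97% rose and 8.22% fell in WT kidneys, and 10.6% rose and 11.2% fell in KO kidneys. Between genotypes after UUO none of these markers was called (limma). Unadjusted p-values below 0.05 were found, higher in KO kidneys, for 3 fibroblast, 1 striated muscle and 1 tubule marker. They were lower for 1 endothelium and 2 tubule markers. At that level 5.55% of all genes were higher and 4.78% lower.

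Whether the members varied together between kidneys was asked over the 12 UUO arrays, after the mean of each genotype was removed. Of 36 pairs 26 correlated positively, with a median r of 0.19. With the means of genotype within set removed 27 did, with a median of 0.25. Among the 7 kidneys of set 2 alone 19 did, with a median of 0.024. Pairs of other genes were not taken as a reference. With the genotype means alone removed, no pair passed after adjustment over the 36 in a permutation test, 4 having an unadjusted p below 0.05. The highest was Acta2 with Tagln, with Pearson's r = 0.67 (permutation p = 0.00799, adjusted 0.288) and Spearman's rho = 0.71 (permutation p = 0.0115, adjusted 0.207). It was 0.60 without the 2 kidneys farthest from the median of Acta2, 0.73 with the means of genotype within set removed and 0.53 in set 2 alone. Myh11 had r = 0.63 with Tagln and 0.56 with Acta2, although its mean moved the other way after UUO. Cnn1 had r = -0.60 with Myh11 and 0.66 with Pdgfrb, which were -0.53 and 0.25 with the means of genotype within set removed.

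Over all 16 arrays, with the 4 group means removed, genes most like Acta2 included 6720456B07Rik (r = 0.91), Efcab9 (0.88), Cd248 (0.88) and 2610002J02Rik (0.83). Of these Efcab9 was dim, at a mean log2 intensity of 7.01. Cd248, endosialin, a surface protein of pericytes and fibroblasts, had log2 fold changes of 0.47 in WT and 0.88 in KO kidneys. Tagln and Myh11 each had r = 0.67 with Acta2, and Pdgfrb 0.01. For Myh11 the nearest were Reps2 (0.90), Olfr782 (0.84), Ly6g6c (0.84), Nrn1 (0.83) and Gpr133 (0.81), whose mean log2 intensities of 6.82 to 6.90 were all below the median of 7.05 over all genes. The points of each correlation share 16 arrays and their scaling. The nearest genes were picked for the highest r among all genes of the table, which favours high values, and their correlations were not tested.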

How the data were processed

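Labeled RNA of 16 mouse kidneys was hybridized to BeadChips, 1 array per kidney, and groups were taken from the sample labels. The authors deposited 1 linear intensity per gene for 18132 genes, from 95.5 to 23471, with no missing value. The submitters' processing notes name BeadStudio 2 and the paper's methods the import with beadarray; how background was corrected, values normalized and probes joined into genes is not given in the sources used here. Array medians lay between 132 and 133, so the values had already been scaled alike. No genome build applies to these values, and all genes were kept, since no detection p-values came with them.

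Log2 intensities, after quantile normalization between arrays, entered linear models in limma 3.58.1 (lmFit, then eBayes; R 4.3.3). Each p-value was adjusted by Benjamini-Hochberg over the whole table. Responses to UUO, the comparison of controls and the difference between genotypes in the response came from a single model of 16 arrays and were called at an adjusted p below 0.05. KO and WT kidneys after UUO were compared over the 12 UUO arrays at the threshold the study used, whose contrast had fewer WT arrays than the 7 labelled here and did not name them. For single genes an exact two-sided permutation test over kidneys was added, and for correlations one with 100000 shuffles within genotype. Other steps used Python 3.11.15, numpy 2.4.6, scipy 1.17.1, pandas 2.3.3 and matplotlib 3.10.9. The fits were also run on simulated data with independent noise and changes larger than those of most members, which does not test smaller changes. Precision is limited by how many arrays each group has.

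The members and the 10 further lists were chosen with earlier results of these data known. The genes named are the members, Il33, up to 4 called genes of each list by size of change (up to 2 where none was called) and the 5 genes nearest to Acta2 and to Myh11, of which 1 is not reported here. Without a row were Myl9, Ppp1r12a, Actg1, Tagln2, Cnn3, Itga8, Tnnt2 and Nphs1. Myl12a and Myl12b were read from rows listed under older symbols, and Pdgfra stands in the non-muscle and the fibroblast list. Alternatives were the normalization, the background, the variance prior, array weights, a filter on dim genes, each array left out, each set of mice alone or as a block, other samples in the fit and other thresholds.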

Additional observations from a re-analysis of the deposited data

Results flagged for a closer look

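Cnn1 in WT kidney 3892 of set 2 after UUO was at a log2 intensity of 7.01, apart from the other 3 WT kidneys of that set at 6.92 to 6.93. Il33 in WT kidney 3818 after UUO was at 8.39, below the other 6 WT kidneys after UUO at 9.10 to 9.57. Il33 in WT kidney 3893 was at 9.33, apart from the other 3 WT kidneys of set 2 at 9.44 to 9.46. These are 3 of 30 groups searched for a kidney far from the others, and chance alone gives about 1 in 20.

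The difference of Myh11 between KO and WT kidneys after UUO was -0.15 in set 1 and 0.19 in set 2, and the difference between the sets was 0.35 (SE 0.11, limma adjusted p = 0.716). For Cnn1 it was 0.09 in set 1 and -0.06 in set 2, with a difference between the sets of -0.14 (SE 0.06, limma adjusted p = 0.726). Neither passed after adjustment.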

How the results depend on the processing

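The count of members called in WT kidneys after UUO, 7, was 3 with arrays of that genotype alone, 0 with UUO arrays of set 1 alone and 1 to 7 when each array was left out, being 1 without either WT control. In KO kidneys it was 5 to 6 under every alternative. For KO against WT kidneys after UUO the count of 1 became 2 in set 2 alone or when arrays were weighted, 3 among the brighter genes or with the 4 groups in one model, 0 with the set of mice as a block, in set 1 alone and at an adjusted p below 0.05, 6 at an unadjusted p below 0.05, and 0 to 3 when each array was left out. It stayed at 1 under the other scalings, the background subtraction and the trend of the prior variance. No member was called in the other 4 comparisons under any alternative. Normalization changed no member call in either genotype's response, and subtracting the background raised the size of changes, as for Tagln from 0.33 to 0.61 in WT and from 0.77 to 1.31 in KO kidneys and for Myh11 from -0.55 to -0.95 in WT kidneys. The cause of the other shifts was not tested.

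Signs turned for values near 0. Actg2 in WT kidneys was 0.017 with set 1 alone and -0.050 to 0.036 when each array was left out. After UUO, Myh11 was -0.15 in set 1 alone, and Cnn1 -0.015 with array weights, -0.055 in set 2 alone and -0.013 to 0.028 when each array was left out. Leaving out a control moved the difference between control kidneys from -0.10 to 0.016 for Tagln, -0.044 to 0.024 for Tpm1, -0.15 to 0.057 for Tpm2, -0.11 to 0.18 for Des and -0.094 to 0.071 for Pdgfrb. The difference between genotypes in the response was -0.0040 for Cnn1 with set 2 alone and -0.010 to 0.28 for Des when each array was left out.

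Over all genes, 2754 were called in WT kidneys after UUO, 188 with set 1 alone, 4241 with set 2 alone, 1778 with arrays of that genotype alone and 809 without WT control 3812. In KO kidneys 3955 were called, and 2258 with set 1 alone. Between genotypes after UUO 2 were called, and from 0 in set 1 alone to 168 among the brighter genes, 1874 at an unadjusted p below 0.05, 1 at an adjusted p below 0.05 and 1 to 309 when each array was left out, 309 being without WT kidney 3819. No paired analysis was possible because each array carries a number of its own.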
